A study of Saccharomyces cerevisiae with 22 samples.

Results

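The late glucose state of a budding yeast culture grown with 40 mM 3AT was compared with the galactose state that the same culture had left. Its members are 5 of the 22 arrays of the series, picked by their labels. The 3 glucose arrays were labelled 850, 878 and 937 h, and the 2 galactose arrays were labelled steady-state at 477 and 522 h. Of the glucose arrays, 937 h alone carries the word steady-state. All 5 held total RNA of Saccharomyces cerevisiae from 1 chemostat, a vessel in which fresh medium continuously displaces culture, and the inhibitor was present in both sugars. The same vessel also gave glucose arrays at 552, 574 and 592 h, and a vessel without inhibitor, called no3AT, gave 2 arrays at glucose steady state (507 and 526 h) and 2 in galactose (305 and 316 h). The labels name no strain. In the study's strain, as known from outside the labels, the HIS3 reading frame sits behind the GAL1 promoter. Arrays of a single culture are not separate cultures, so every p-value below measures the spread between these arrays, which may be technical.

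3AT, or 3-amino-1,2,4-triazole, competes for the active site of the histidine enzyme His3, so cells need more of that enzyme to grow without histidine. Galactose switches on the GAL genes through the activator Gal4, and glucose shuts them off. Glucose also favours glycolysis and ethanol production over respiration, and it represses the genes for other sugars. A shortage of amino acids raises translation of the activator Gcn4, whose targets include most genes of amino acid synthesis and the 3AT exporter gene ATR1.

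Each value is the log2 ratio of a sample labelled with Cy5 over a pool of glucose and galactose RNA labelled with Cy3, after the median of the array was subtracted. A change is the mean of the glucose arrays minus the mean of the galactose arrays. The sources used here do not say which dye stands on top of the ratio. Read as sample over pool, GAL7 stood at -4.87 at 574 h in glucose, against -0.91 and -0.80 on the galactose arrays. The 937 h and 477 h arrays correlated at -0.33 across rows, the lowest of the pairs of a glucose and a galactose array, and the direction was kept because the labels state the dyes and the sugars could oppose. Because the pool is itself a mixture of both states, the values give no absolute level, and levels are not compared between genes. In a whole culture, fewer cells expressing a gene cannot be told apart from less RNA per cell.

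The 3 glucose arrays were less alike than the 2 galactose arrays. Across rows the glucose arrays correlated at 0.49 (850 and 878 h), 0.37 (850 and 937 h) and 0.30 (878 and 937 h), against 0.76 for the galactose arrays. Genes more than 2-fold from the galactose mean numbered 348 above and 293 below at 850 h (11.3% of genes with a value), 319 above and 141 below at 878 h (7.90%), and 923 above and 584 below at 937 h (26.1%). The 937 h array thus stood apart by the size of its differences. At 574 h and 592 h the shares were 37.8% and 29.6%. At 552 h, 5 of 5943 genes were past 2-fold (0.084%), although that array is labelled glucose.

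In late glucose, 6 of 12 genes of lower glycolysis, 11 of 21 chaperone genes, PDC1, PDC5 and PDC6 of pyruvate decarboxylase, and the metallothionein genes were higher than in galactose, while INO1, ATP2 and ATP4 of ATP synthase, and 5 of 13 genes of sucrose and maltose use were lower. After the correction for row position described below, PDC1, PDC6 and these 5 sucrose and maltose genes no longer passed. The genes called higher were then 5 of the 21 chaperone genes and 5 of the 12 of lower glycolysis. Of 5836 genes tested, 769 passed an adjusted p of 0.05 (13.2%), with 376 higher (6.44%) and 393 lower (6.73%). The counts of called genes in each list are to be read beside these shares. Of these 769, 530 differed by more than 2-fold. The median change over all tested genes was 0.07. The number of calls rests on both galactose arrays: without the 477 h array or without the 522 h array no gene passed, although 773 and 1088 genes had an unadjusted p under 0.05. Without the 937 h array 1539 genes passed, and without the 850 h or the 878 h array 304 and 251 did.

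The changes also followed the order of rows in the table, which runs by systematic name and therefore by chromosome arm. The change of a gene correlated with that of the row after it at 0.51 across rows, and still at 0.45 with the row 12 places on. By arm, the median change ran from -0.79 on the left arm of chromosome X, where 87 of 218 genes were lower, to 0.66 on the left arm of chromosome XIII. The 10 arms with a median under -0.25 held 312 of the 393 genes called lower and 21 of the 376 called higher, among 1775 tested genes. The other 22 arms held 73 lower and 353 higher calls among 4028. The arms were grouped by these same changes, so the split of calls between the groups was largely set by the grouping. A second set of values, named neighbour-corrected here, had a local median removed, taken over every 2nd row out to 10 such rows above and 10 below. With these, 148 of 5836 genes passed (2.54%), 101 higher (1.73%) and 47 lower (0.805%). Of the 769 genes first called, 104 were called again and 763 had the same sign. Below, calls lost after neighbour correction are given gene by gene for the main lists and as counts for the others.

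**Figure D1:**
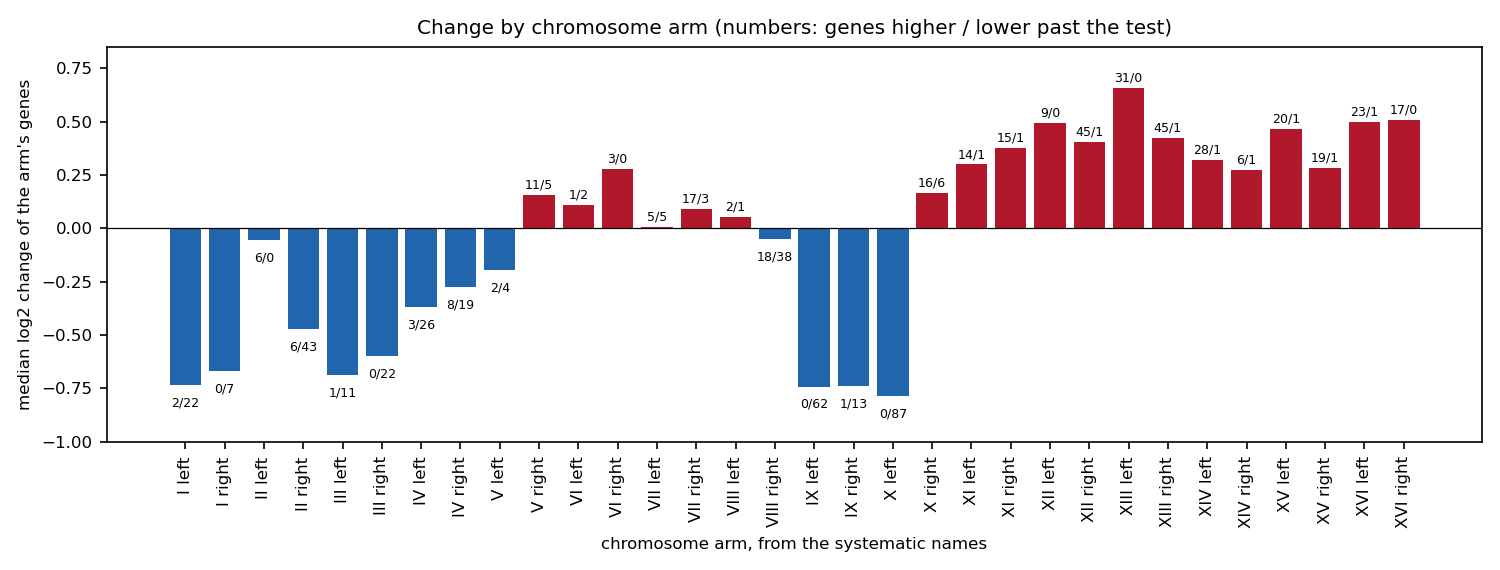
Median log2 change, glucose at 850 to 937 h minus galactose, of the tested genes on each chromosome arm, with arms read from systematic names. The numbers at the bars are genes called higher and lower, and the left arm of chromosome X has the lowest median, -0.79, while the left arm of XIII has the highest, 0.66.

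GPM1, which encodes phosphoglycerate mutase, had the largest increase of the genes called. It stood at 0.15, 0.79 and 0.24 at 850, 878 and 937 h in glucose, against -2.52 and -2.19 at 477 and 522 h in galactose. The groups were far apart, with a change of 2.75 (SE 0.28, adjusted p = 0.0035), and 2.48 after neighbour correction (adjusted p = 0.0062). ENO2, which encodes an enolase of the same stretch of the pathway, stood at -0.15, 0.32 and 0.23 in glucose, against -2.01 and -1.61 in galactose. Its change was 1.95 (SE 0.27, adjusted p = 0.0087). FBA1, the aldolase gene that splits the phosphorylated hexose, stood at 0.29, 0.40 and 0.21 in glucose, against -1.22 and -1.41 in galactose, a change of 1.61 (SE 0.24, adjusted p = 0.0087). In each of the 3 genes all glucose arrays lay above both galactose arrays, as in 27.1% of genes with a value on every array compared.

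Of 12 measured genes of lower glycolysis, 6 were higher and none lower (median change 0.87, against 0.07 over all genes), and 5 were higher after neighbour correction (median 1.24). Besides GPM1 and ENO2, ENO1 changed by 1.47, TPI1, the triose phosphate isomerase gene, by 1.22, the pyruvate kinase gene CDC19 by 1.00 and the glyceraldehyde phosphate dehydrogenase gene TDH3 by 0.99, and TDH3 did not pass after neighbour correction. TPI1 was the tightest of them, at 0.69, 0.52 and 0.67 in glucose, against -0.50 and -0.69 in galactose. Of 8 genes of upper glycolysis, FBA1 and PFK1, a phosphofructokinase subunit, passed, with PFK1 at 1.13, and both passed after neighbour correction. The hexokinase gene HXK1 and the isomerase gene PGI1 had changes of 0.53 and 0.52 and did not pass. ERR3, whose product resembles enolase, changed by 2.19 (SE 0.25, adjusted p = 0.0048), and spots of similar paralogs such as ENO1, ENO2 and ERR3 may share signal.

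Pyruvate decarboxylase, the enzyme that turns pyruvate into acetaldehyde on the way to ethanol, is encoded by PDC1, PDC5 and PDC6. PDC1 stood at 1.19, -0.07 and -0.26 in glucose, against -2.31 and -1.63 in galactose. PDC5 stood at 0.80, -0.17 and 0.07, against -1.44 and -1.64. PDC6 stood at 1.45, -0.24 and -0.52, against -2.39 and -1.52. In all 3 genes the 850 h array was the highest, and no glucose array reached down to galactose. The latter held for 27.1% of genes with all 5 values. The changes were 2.26, 1.77 and 2.18 (SE 0.40, 0.31 and 0.50), each past the test. After neighbour correction PDC5 passed (1.47, adjusted p = 0.043), while PDC1 (1.79, adjusted p = 0.097) and PDC6 (2.18, adjusted p = 0.051) did not. Of the 9 measured fermentation genes 5 were higher (median 1.30), among them ADH3, a mitochondrial alcohol dehydrogenase gene, at 1.31 and ADH1, the main ethanol-forming one, at 1.30. After neighbour correction PDC5 was higher and ALD6, an aldehyde dehydrogenase gene, lower, and no other gene of the list passed.

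**Figure D2:**
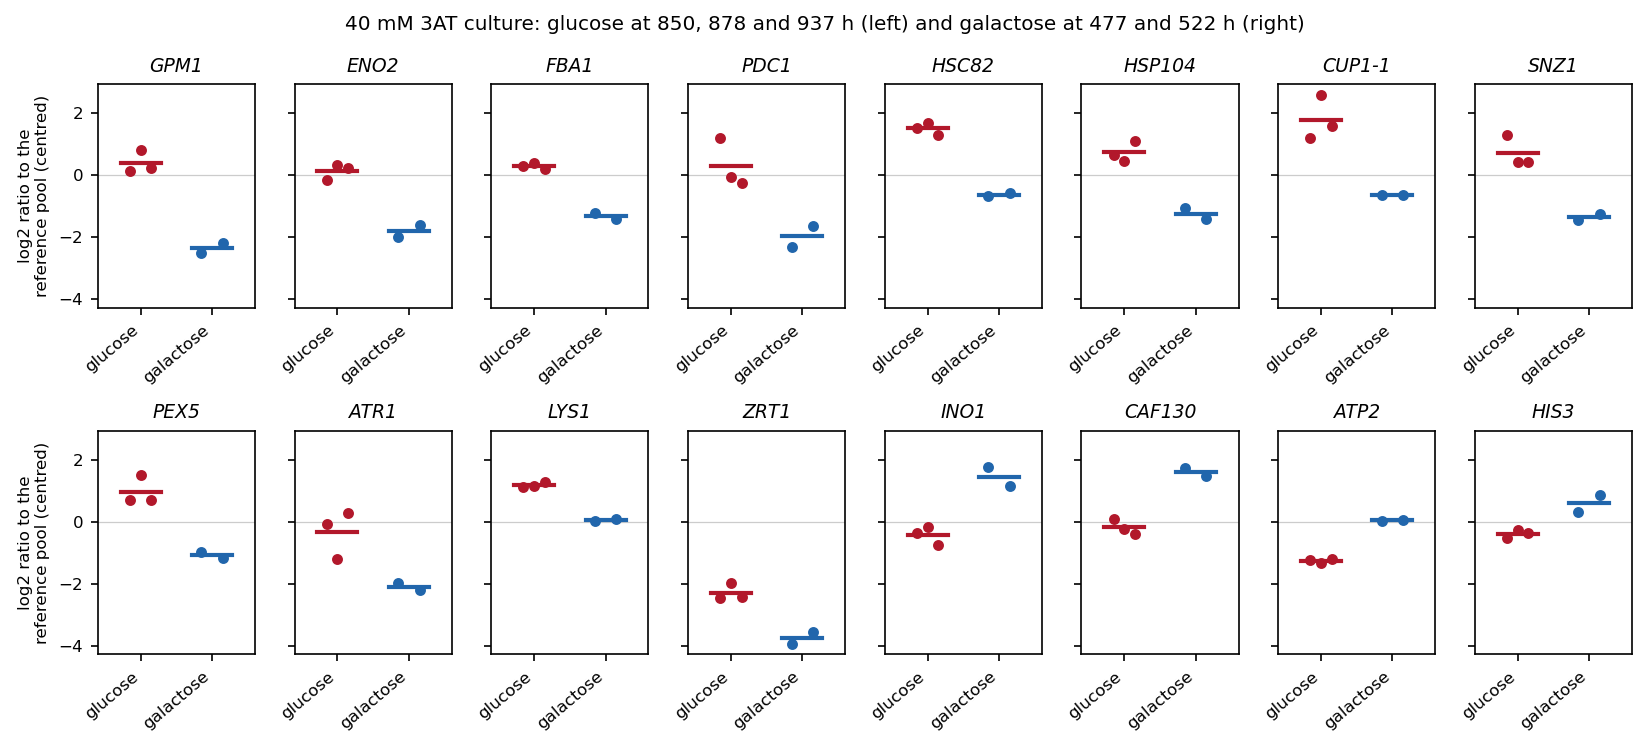
Centred log2 ratio to the reference pool of 16 genes on each array of the 40 mM 3AT culture, with glucose at 850, 878 and 937 h in red on the left of each panel and galactose at 477 and 522 h in blue on the right. Points are arrays and lines are group means. The groups do not overlap in any panel, with GPM1 at 0.15 to 0.79 in glucose, against -2.52 and -2.19 in galactose. Some panels, GPM1 among them, show genes picked partly for this lack of overlap. Among genes with a value on each of these arrays, 27.1% had glucose wholly above galactose and 27.9% wholly below.

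Chaperone genes formed the list with the most calls for its size among those with over 10 members. HSC82, which encodes the constitutive form of Hsp90, stood at 1.52, 1.68 and 1.31 in glucose, against -0.67 and -0.59 in galactose. Its change was 2.14 (SE 0.25, adjusted p = 0.0048). HSP82, the heat-inducible Hsp90 gene, stood at 0.66, 0.97 and 1.56, against -0.80 and -1.12, a change of 2.02 (SE 0.30, adjusted p = 0.0087). Spots of these near-identical copies may share signal. HSP104, which encodes a disaggregase that pulls proteins out of aggregates, stood at 0.65, 0.46 and 1.11, against -1.06 and -1.42, a change of 1.98 (SE 0.28, adjusted p = 0.0087). SIS1, an Hsp40 co-chaperone gene with no value at 850 h, stood at 1.17 and 0.89, against -0.88 and -0.70, a change of 1.82. Of 21 measured chaperone genes, 11 were higher and 1, the mitochondrial disaggregase gene HSP78, lower at -0.81 (median 1.04), and 5 were higher after neighbour correction (median 0.79), namely these 4 and SSA1, a cytosolic Hsp70 gene. The list's median on single arrays was 0.48, 0.72 and 0.64 in glucose, against -0.38 and -0.29 in galactose.

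The metallothionein genes CUP1-1 and CUP1-2, whose product binds copper, were also high. CUP1-1 stood at 1.19, 2.59 and 1.58 in glucose, against -0.63 and -0.65 in galactose, and CUP1-2 at 1.17, 2.64 and 2.00, against -0.52 and -0.57. These are near-identical repeats, so their changes of 2.43 and 2.48 (adjusted p = 0.0087 each) should be read as 1 measurement. PEX5, which encodes the receptor that imports proteins into peroxisomes, stood at 0.69, 1.505 and 0.69 in glucose, against -0.97 and -1.17 in galactose, a change of 2.03 (adjusted p = 0.0087). The rest of the peroxisome and fatty acid oxidation list did not follow it: of 36 genes 1 was higher and 4 lower (median 0.07). Over all genes 6.44% were called higher and 6.73% lower. Lower were POX1, the acyl-CoA oxidase gene of fatty acid breakdown, at -1.13 and the oleate activator gene OAF1 at -1.03. So were the thiolase gene POT1 at -0.98 and PEX28 at -0.93. After neighbour correction PEX5 was higher, POX1 lower, and no other gene of that list passed. The rows YMR046C, YFL-TYB and YBL100W-A, which the gene table leaves without a name, changed by 2.42, 2.34 and 2.20 (adjusted p = 0.0087 each).

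Of 33 proteasome genes, 28 had a positive change, against 3124 of 5836 over all genes. Of the 33, 6 were called higher and none lower (median 0.51), where 6.44% of all genes were called higher. RPN7, a lid subunit gene, stood at 0.22, 0.39 and 0.62 in glucose, against -1.05 and -0.87 in galactose, a change of 1.37. PRE8, PRE5 and PRE6, genes of the catalytic core, had changes of 1.33, 1.06 and 1.09. None of the 33 passed after neighbour correction, with RPN7 at adjusted p = 0.062.

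The GAL genes, which galactose induces, did not pass in this comparison. GAL1, which encodes galactokinase, stood at -1.68, -1.30 and -0.94 in late glucose, against -1.23 and -1.06 in galactose. The 2 groups overlapped, and the change was -0.16 with a 95% confidence interval of -0.77 to 0.45 (SE 0.28, adjusted p = 0.71). GAL7, the uridylyltransferase gene, stood at -1.41, -1.09 and -1.23, against -0.91 and -0.80, a change of -0.39 (interval -0.93 to 0.15, adjusted p = 0.28). GAL10, the epimerase gene, stood at -1.30, -0.40 and -0.86, against -0.58 and -0.02, a change of -0.55 (interval -1.24 to 0.13, adjusted p = 0.22). At 574 h in the same vessel GAL1 and GAL10 stood at -4.26 and -3.92, and at 592 h at -3.17 and -3.80, far below both groups compared here. GAL2, the galactose permease gene, had a change of 0.18 and spread widely in glucose, at -1.74, -1.55 and -0.17. The sensor gene GAL3 had -0.75 (adjusted p = 0.099) and the repressor gene GAL80 had 0.64 (adjusted p = 0.098), neither past the test.

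Of 11 measured genes of the GAL list, 1 passed, and it was lower (median -0.03). FUR4, a uracil permease gene that neighbours the GAL cluster, stood at -0.61, -0.63 and -0.57 in glucose, against 0.82 and 0.57 in galactose. Its change was -1.30 (SE 0.24, adjusted p = 0.017), and -1.36 after neighbour correction (adjusted p = 0.030).

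**Figure D3:**
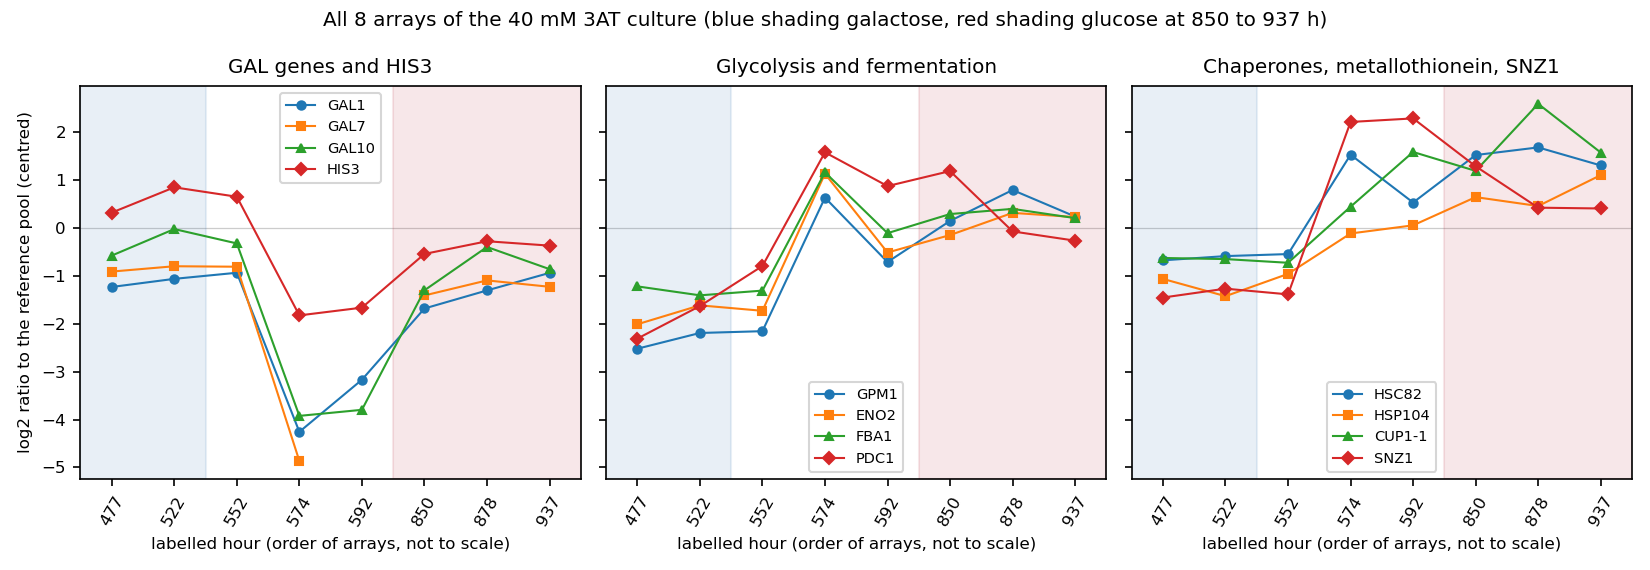
Centred log2 ratio to the reference pool on all 8 arrays of the 40 mM 3AT culture, in order of labelled hour and not to scale in time, for 12 genes. Blue shading marks galactose and red shading glucose at 850 to 937 h. GAL1 stands at -4.26 at 574 h and between -1.68 and -0.94 in late glucose, against -1.23 and -1.06 in galactose, while HSC82 stays between 1.31 and 1.68 in late glucose, against -0.67 and -0.59 in galactose.

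HIS3, whose product 3AT inhibits, was lower in late glucose than in galactose. It stood at -0.54, -0.28 and -0.37 in late glucose, against 0.32 and 0.85 in galactose. At 574 and 592 h it had stood at -1.82 and -1.66. The late change was -0.98 (SE 0.26, adjusted p = 0.036), and -1.40 after neighbour correction (adjusted p = 0.029). The rest of the histidine pathway did not move together. HIS6, an isomerase gene of the pathway, changed by -1.25 (adjusted p = 0.024), but stood at -0.60 after neighbour correction (adjusted p = 0.16). HIS1, HIS4, HIS5 and HIS7 had changes of 0.43, 0.54, -0.37 and -0.12 without passing, and HIS2 had no value on the late glucose arrays. HIS1, the gene of the first enzyme, stood at 1.57, 0.50 and -0.21 in late glucose, against 0.21 and 0.17 in galactose, so only the 850 h and 878 h arrays lay above galactose. Of 6 tested histidine genes, none was higher and 2 were lower (median -0.25), and after neighbour correction HIS3 alone was lower.

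ATR1, the 3AT and multidrug exporter gene, was higher. It stood at -0.08, -1.22 and 0.27 in late glucose, against -1.98 and -2.21 in galactose. The 878 h array lay closest to galactose, and the change was 1.75 (SE 0.38, adjusted p = 0.024), with adjusted p = 0.056 after neighbour correction. GCN4 itself stood at 0.60, 0.58 and -0.09, against 0.25 and -0.29, a change of 0.38 that did not pass. PCL5, a cyclin gene whose product marks Gcn4 for breakdown, stood at 1.72, 1.13 and 0.56, against -0.28 and -0.26. Its change was 1.41 (adjusted p = 0.026, and 0.090 after neighbour correction), and it was the 1 of 5 Gcn4 regulators called (median 0.27). GCN2, the kinase gene that senses uncharged tRNA, had -0.60 and did not pass. Of 15 genes of the multidrug and aminotriazole resistance list, 3 were higher and 2 lower (median -0.09), and none passed after neighbour correction. The polyamine exporter gene TPO1 and the lipid transfer gene PDR16 were at 1.18 and 1.27, and the exporter genes QDR1 and QDR2 were at -1.25 and -0.89.

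Among amino acid genes, lysine synthesis had the highest share of calls. LYS1, the gene of the last enzyme, stood at 1.10, 1.14 and 1.28 in late glucose, against 0.03 and 0.08 in galactose. Its change was 1.12 (SE 0.24, adjusted p = 0.024), and 1.83 after neighbour correction (adjusted p = 0.0053). LYS21 and LYS20, homocitrate synthase genes at the head of the pathway, changed by 1.12 and 0.93, and LYS9, a saccharopine dehydrogenase gene, by 1.03. Thus 4 of 8 genes were higher and none lower (median 0.56), and LYS1 and LYS21 were higher after neighbour correction. At 574 h LYS9 stood at 4.25, above its late values of 1.19, 1.73 and 1.70. The other amino acid lists gave 0 of 9 arginine genes (median -0.05), 1 of 12 branched-chain genes higher (BAT2, median 0.31), 1 of 12 aromatic genes higher (TRP5, median 0.12), and 2 higher (SUL2 and HOM6) and 2 lower (MET6 and MET30) of 27 sulfur and methionine genes (median 0.23). These counts stand beside 6.44% called higher and 6.73% called lower over all genes. After neighbour correction BAT2, TRP5, SUL2 and MET30 did not pass, HOM6 and MET6 did, and so did BAT1 of the branched-chain list.

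SNZ1 and SNO1, a divergent gene pair of vitamin B6 synthesis, were both higher. SNZ1 stood at 1.29, 0.43 and 0.41 in late glucose, against -1.45 and -1.27 in galactose, a change of 2.07 (SE 0.31, adjusted p = 0.0087). SNO1 stood at 0.52, 0.43 and 1.13, against -0.74 and -0.87, a change of 1.502 (adjusted p = 0.017). All 3 glucose arrays of both genes lay above both galactose arrays, as in 27.1% of genes with all 5 values. These were 2 of 6 tested genes of the family (median 0.84), and SNZ2 and SNZ3 had 0.92 and 0.74 without passing. After neighbour correction SNZ1 was at 1.43 (adjusted p = 0.0501) and SNO1 at 0.85 (adjusted p = 0.061).

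Of 12 purine synthesis genes 3 were higher (median 0.49). ADE17, which encodes the enzyme of the last steps to inosine monophosphate, stood at 0.14, 0.06 and 0.51 in late glucose, against -1.35 and -1.32 in galactose. Its change was 1.57 (adjusted p = 0.011), and it was the one gene of the list past the test after neighbour correction. ADE12, on the branch to adenine nucleotides, and SHM2, a serine hydroxymethyltransferase gene, changed by 1.23 and 1.02. Among 19 amino acid permease genes 3 were higher and 1 lower (median -0.09). GAP1, the general permease, changed by 1.54, DIP5, for acidic amino acids, by 1.51, and LYP1, for lysine, by 1.25, while TAT1, a tyrosine and tryptophan permease gene, changed by -1.03. None of these 4 passed after neighbour correction, and UGA4, a permease gene for gamma-aminobutyrate, was the one permease that did.

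ATP2, the beta subunit gene of ATP synthase, stood at -1.25, -1.35 and -1.22 in late glucose, against 0.03 and 0.04 in galactose. Its change was -1.31 (SE 0.24, adjusted p = 0.016), and -1.35 after neighbour correction. ATP4, a stalk subunit gene of the same complex, stood at -0.93, -0.83 and -1.19, against 0.25 and -0.25, a change of -0.98 (adjusted p = 0.037). Of 32 genes of the respiratory chain and ATP synthase none was higher and 5 were lower (median -0.37). COX5B, a cytochrome oxidase subunit gene, QCR8, of the bc1 complex, and ATP16 changed by -1.25, -0.98 and -0.96, and none of them passed after neighbour correction, where ATP2 and ATP4 did. None of 17 TCA cycle genes passed (median 0.09). Of 68 mitochondrial ribosomal protein genes 5 were lower (median -0.11), a share near the 6.73% called lower over all genes, with MRPS5 at -1.35, MRPL8 at -1.18, MRPL36 at -1.09, MRPL49 at -1.07 and MRPL27 at -0.87, and none passed after neighbour correction.

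Genes for other sugars gave 5 lower of 13 in sucrose and maltose use, with none higher (median -0.83). MAL13 and MAL33, maltose activator genes, changed by -1.10 and -1.07, the isomaltase genes IMA4 and IMA5 by -0.93 and -0.83 and the maltose permease gene MAL31 by -0.84. MAL33 stood at -0.28, -0.26 and -0.45 in late glucose, against 0.97 and 0.52 in galactose. After neighbour correction none of the 13 passed and the median was -0.21. Many members of this list are related copies near chromosome ends, and their spots may share signal. Of 21 hexose transporter and sensor genes 2 were higher (median 0.53), where 6.44% of all genes were called higher. They were HXT1, a low-affinity glucose transporter, at 0.91 and HXT16 at 1.28, with none after neighbour correction. HXT1 stood at -0.87, -0.84 and -0.43, against -1.54 and -1.70. Of 13 genes of gluconeogenesis and the glyoxylate cycle 1 was higher and 3 lower (median -0.0033). PCK1, the phosphoenolpyruvate carboxykinase gene, was the higher one at 0.92, while the acetyl-CoA synthetase gene ACS1 had -1.06, the acetate transporter gene ADY2 -0.98 and the activator gene SIP4 -0.83, and none passed after neighbour correction.

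INO1, which encodes inositol phosphate synthase, had the largest decrease among called genes with a value on all 5 arrays. It stood at -0.36, -0.18 and -0.77 in late glucose, against 1.75 and 1.16 in galactose. Its change was -1.89 (SE 0.29, adjusted p = 0.0087), and -1.05 after neighbour correction (adjusted p = 0.042). INO2, an activator gene of INO1, changed by -1.15, CHO1, the phosphatidylserine synthase gene, by -0.85, and OPI1, the repressor gene of the same system, by 1.15, and none of these 3 passed after neighbour correction. In all, 1 of 19 phospholipid genes was higher and 3 were lower (median 0.10).

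The next largest decreases among such genes were in genes of unlike roles. CAF130, a subunit gene of the CCR4-NOT mRNA deadenylase complex, stood at 0.09, -0.23 and -0.41 in late glucose, against 1.71 and 1.49 in galactose, a change of -1.78 (adjusted p = 0.0087), and -1.96 after neighbour correction (adjusted p = 0.0053). RAD61, a cohesin regulator gene, changed by -1.72 and MSH1, a mitochondrial DNA repair gene, by -1.57, and both passed after neighbour correction. APQ12, LAS21, BMT5, YJL064W, YIL089W and YJL067W changed by -1.68, -1.61, -1.51, -1.56, -1.53 and -1.51, and none of these 6 passed after neighbour correction.

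ZRT1, the high-affinity zinc transporter gene, lay far under the pool on all 5 arrays compared, though at 0.76 and -0.33 at 574 and 592 h. It stood at -2.45, -1.98 and -2.43 in late glucose, against -3.95 and -3.55 in galactose, a change of 1.46 (SE 0.27, adjusted p = 0.016), and 1.81 after neighbour correction (adjusted p = 0.012). With quantile normalization its change was 0. That method gives genes of equal rank on each array the same value, so a gene lowest on every array shows no change under it. Of 10 genes of the zinc regulon 3 were higher (median 0.59), with the low-affinity transporter gene ZRT2 at 1.55 and the cell wall protein gene ZPS1 at 1.67, neither past the test after neighbour correction. Of 29 oxidant defence genes 5 were higher (median 0.21). AHP1, a thioredoxin peroxidase gene, changed by 1.55, PRX1, a mitochondrial peroxiredoxin gene, by 1.26, OYE3, an oxidoreductase gene, by 1.27, CCP1, cytochrome c peroxidase, by 0.95 and GSH2, of glutathione synthesis, by 0.93. After neighbour correction PRX1 and OYE2 passed. Of 23 ergosterol genes 4 were higher and none lower (median 0.54), namely ERG5, ERG10, ERG13 and ERG2 at 1.24, 1.10, 1.09 and 1.08. After neighbour correction these 4 did not pass, and ERG9 and ERG20, which make squalene and its precursor, did.

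Cytosolic ribosomal protein genes had few calls, though 97 of 130 had a positive change, against 3124 of 5836 over all genes. Of the 130, 4 were called higher and none lower, a share below the 6.44% called higher over all genes. The median was 0.32, against 0.07 over all genes. The 4 were RPL43B at 1.18, RPL10 at 1.00, RPL1A at 0.94 and RPS10B at 0.93. None of the 4 passed after neighbour correction, where RPP2B did. The list's median was 0.90, 0.65 and 0.19 at 850, 878 and 937 h, against 0.23 and 0.35 in galactose, so the 937 h array lay below both galactose arrays. Of 62 ribosome biogenesis genes 3 were higher (UTP15, DIP2 and DRS1) and 3 lower (IMP3, UTP18 and NOP9, median 0.05). Both shares were below those over all genes, 6.44% and 6.73%. None of these genes passed after neighbour correction, where NOP7 was lower. No histone gene of 9 passed (median 0.08).

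The remaining lists had calls in both directions or in few members, and most were lost after neighbour correction. Their counts stand beside 6.44% called higher and 6.73% called lower over all genes. Of 16 trehalose and glycogen genes TSL1, a trehalose synthase subunit gene, was higher at 1.27 (median 0.45). Of 20 iron genes ENB1, FRE1 and HMX1 were higher and the iron permease gene FTR1 was lower at -1.10 (median -0.10). Of 16 phosphate genes PHO86 and SPL2 were lower (median -0.28). Of 24 nitrogen genes GLN1, the glutamine synthetase gene, was higher at 1.22 as was PUT2, while DAL4, DAL1, GDH2 and GZF3 were lower, the last at -1.47 (median 0.05). Of 15 genes of the G1 and S phases the cyclin gene CLB5 was higher at 1.16 and RFA1, RNR1 and CDC9 were lower (median -0.21), and of 13 of the G2 and M phases CDC20 and MOB1 were lower (median -0.15). Among 13 sporulation genes SGA1 and the activator gene NDT80 were lower, at -1.08 and -1.35 (median 0.07). After neighbour correction FTR1 and RNR1 alone of these genes passed, and no gene of the trehalose, phosphate, nitrogen, G2 and M phase, sporulation or mating type lists did. As markers of mating type, 1 of 6 MATa genes, ASG7, was lower (median -0.13) and none of 4 MATalpha genes passed (median -0.05). Ratios to a pool cannot show which mating type the cells had.

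**Figure D4:**
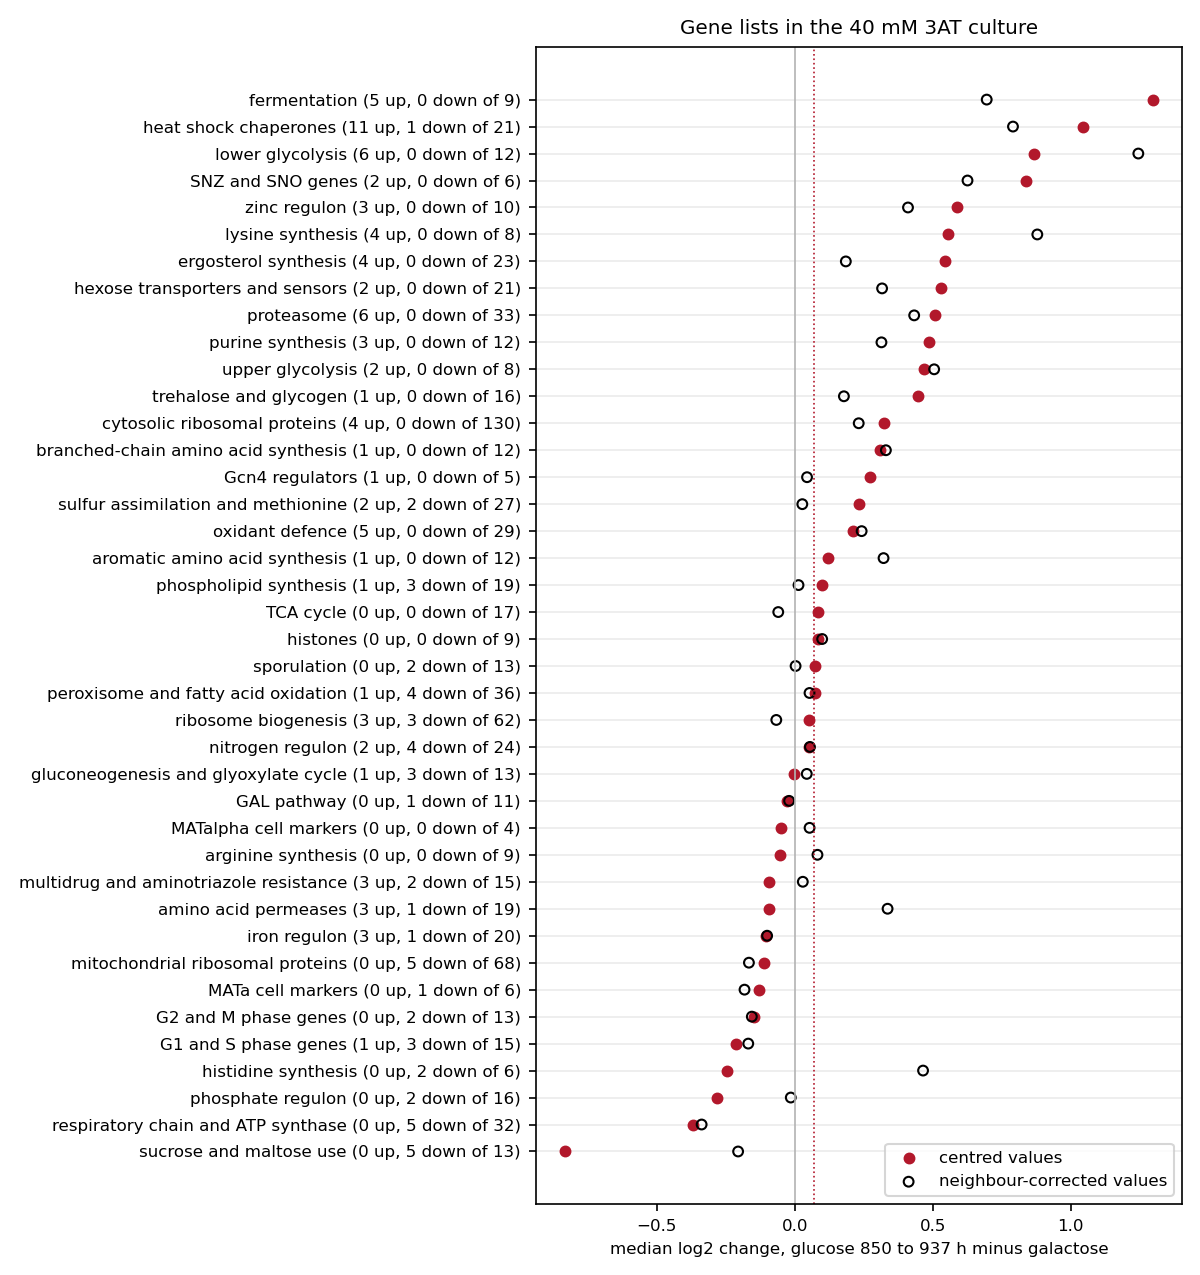
Median log2 change of 40 gene lists, glucose at 850 to 937 h minus galactose, for centred values (filled) and neighbour-corrected values (open), with counts of genes called from the centred values. The dotted line is the median of all genes, 0.07. Chaperones stand at 1.04 and 0.79, and lower glycolysis at 0.87 and 1.24.

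The change with 3AT was set against that of the no3AT culture, glucose at steady state minus galactose, to ask where the 3AT culture ended elsewhere. Each change comes from a single vessel, and the vessels were sampled at different labelled hours. Inhibitor, vessel and time therefore cannot be told apart, and the words with 3AT and without name the cultures only. No gene of 5450 passed the test of the difference between the changes (0%), although 323 had an unadjusted p under 0.05. In the no3AT culture alone 250 of the same genes passed (4.59%), 22 higher (0.404%) and 228 lower (4.18%). Across the 5450 genes the 2 changes, which share no arrays but share the reference pool and the row order, correlated at 0.66, and at 0.45 after neighbour correction. In simulated data of this size, the test of the difference found 32.8% of differences with a log2 size of 2 and 80.3% of those of 3. It made 6 false calls among 83 calls there. It found 3% of those with a log2 size of 1, and these shares describe the simulated data only.

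GAL10, GAL7 and HIS3 had less negative changes with 3AT than without, and none of the differences passed. GAL10 changed by -0.55 with 3AT and by -3.32 without, a difference of 2.76. It had no value at 507 h, so its no3AT glucose side is the 526 h array alone, at -3.73. GAL7 changed by -0.39 with 3AT and by -2.13 without (difference 1.74, 95% confidence interval 0.80 to 2.69, adjusted p = 0.43). HIS3 changed by -0.98 with 3AT and by -3.17 without (difference 2.19, interval 0.83 to 3.56, adjusted p = 0.55). These intervals are not adjusted for the number of genes. In the no3AT culture alone the falls of GAL7 and HIS3 passed (adjusted p = 0.0029 and 0.0024). GAL1 changed by -0.16 with 3AT and by -1.29 without, and neither passed. Its no3AT glucose arrays lay far apart, at -3.68 (507 h) and -0.53 (526 h).

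The chaperone genes had a median change of 1.04 with 3AT and of -0.05 without, and the median of the difference gene by gene was 0.81. That median was higher in the GAL list, at 1.01, and in histidine synthesis, fermentation and gluconeogenesis, at 0.86, 0.86 and 0.85, and it was 0.13 over all genes. HSC82 changed by 2.14 with 3AT and by -0.09 without (difference 2.23, adjusted p = 0.39), and stood at 1.52, 1.68 and 1.31 in late glucose with 3AT. Other genes with a positive difference that ranked high by moderated t were SNZ1 at 2.00 (adjusted p = 0.43), FAR10, a gene of pheromone arrest, at 2.06, and the rows YBR206W at 2.64 (adjusted p = 0.21) and YHR213W at 1.91. With the second culture without inhibitor, no3AT2, in place of no3AT, the difference of SNZ1 was -0.97. Negative differences that ranked high by moderated t were -1.61 in OSI1, -1.46 in GPX1, a glutathione peroxidase gene, -1.37 in ZAP1, the zinc activator gene, -1.31 in BNA3, a gene of tryptophan breakdown, and -1.22 in YKR012C. None of these 10 passed.

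Some lists had near-equal medians in both cultures, such as lysine synthesis, with a median of 0.56 with 3AT and 0.61 without, and the zinc regulon, with 0.59 and 0.58. LYS1 changed by 1.12 with 3AT and by 1.10 without (difference 0.02, 95% confidence interval -0.82 to 0.86). GPM1 changed by 2.75 with 3AT and by 2.07 without, and INO1 by -1.89 and -2.99, with no difference past the test. Cytosolic ribosomal proteins had medians of 0.32 with 3AT and -0.52 without, and branched-chain synthesis 0.31 and -0.69, values given here without a test.

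**Figure D5:**
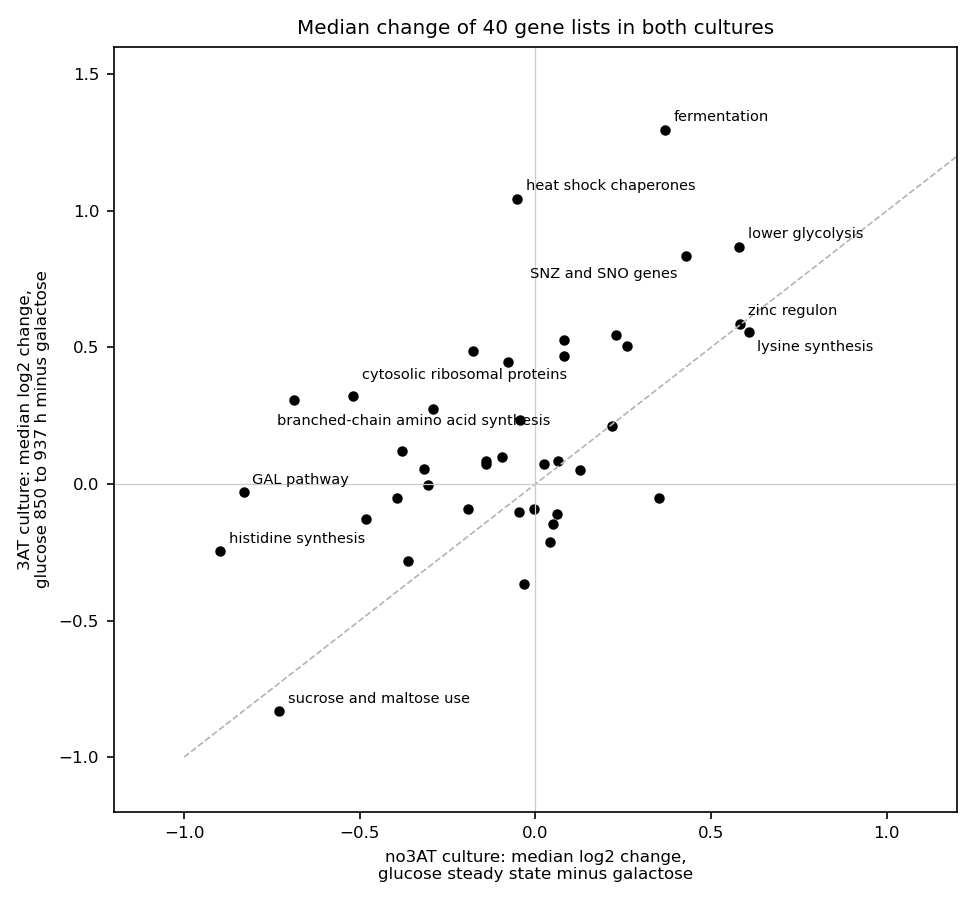
Median log2 change of 40 gene lists in the 3AT culture (vertical, glucose at 850 to 937 h minus galactose) against the no3AT culture (horizontal, glucose at steady state minus galactose), with the line of equal change dashed. Chaperones lie at 1.04 with 3AT and -0.05 without, and lysine synthesis at 0.56 and 0.61.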

How the data were processed

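Total RNA of the no3AT and 3AT chemostats, and polyA RNA of no3AT2, was hybridised on 2-colour arrays. Per the labels, the sample carried Cy5 and a pool of galactose and glucose RNA carried Cy3, and extraction used hot phenol. The authors deposited 1 table of log ratios, used here as log2 values because they are signed and centred near 0. How the authors scanned, corrected, filtered and normalized the spots, and the log base, is not given in the sources used here, and depth is unknown because no intensities were used. Under another base every change would scale, and the 2-fold counts and the test with a 1.5-fold minimum would change.

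The table has 6281 rows, of which 5763 matched a gene of the R64 assembly (57 by another name) and 518 did not. Rows of 1 gene were averaged (76 rows), leaving 6242 genes. Each array was centred on its median, which was between -0.15 and 0.07. Genes with values on at least 4 of 5 arrays entered a limma fit (version 3.58.1, R 4.3.3, 3 residual and 8.5 prior degrees of freedom), two-sided with Benjamini-Hochberg adjustment over all genes. The difference between cultures came from a fit of 9 arrays, with values on at least 8. A gene missing on 1 array was fitted without it. The number of arrays limits the precision.

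The text names the 10 genes furthest up and the 10 furthest down among those past the test with all 5 values and no overlap, fixed GAL and HIS genes with GCN4 and ATR1, up to 4 members of a described list by moderated t, and, since no difference from no3AT passed, the 5 genes each way with the largest moderated t for it and all 9 values. Other called members of lists were named after their values were seen. Members, lists and the neighbour correction were chosen with earlier results of these data known. The tests were run on simulated data, where the 3AT comparison recovered 17.9%, 76.1% and 92.4% of changes of log2 size 1, 2 and 3. It made 1 false call among 125 calls, and the test of the difference made 6 among 83. These counts and shares describe the simulated data. They give no rate of false calls or of detection for the deposited values, whose changes followed row order. Alternatives were other centring and normalization, filters, moderation, sets of arrays and a 1.5-fold minimum. The search for promoter motifs was not run, and sequences were not used here.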

Additional observations from a re-analysis of the deposited data

How the results depend on the processing

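The number of calls varied with the processing and with the arrays used. The spread was estimated from few arrays of 1 culture. For late glucose against galactose with 3AT, 769 genes passed, and 1333 did with quantile normalization, 148 neighbour-corrected, 1 with a 1.5-fold minimum, 0 in the limma fit on all 22 arrays (822 at an unadjusted p under 0.05) and 2760 with 937 h as the only glucose array. Without centring 1038 passed, 330 higher and 708 lower, against 376 and 393 with centring. Leaving out 1 array gave 0 (without either galactose array) to 1539 (without 937 h). Neighbour-corrected values without the 937 h array, an alternative chosen after seeing the data, gave 654. All but 1 of the 769 kept their sign with quantile normalization and 763 when neighbour-corrected.

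For the difference between the cultures 0 genes passed, and 26 did with no3AT2 in place of no3AT, an exchange that also changes total to polyA RNA. Leaving out 1 array gave 0 to 40, the highest without no3AT at 507 h. For no3AT alone 250 passed, against 31 with quantile normalization, 128 neighbour-corrected, 9 in the fit on all 22 arrays, 895 with no3AT2, and 20 to 430 with 1 array left out, the lowest without the galactose array at 316 h. The causes were not tested.

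Of the named genes that changed sign in the 3AT comparison, SIP4 alone had passed the test. HXK1 had -0.058 and SIP4 0.028 with neighbour-corrected values without 937 h. Under the same values GAL2 had -0.58, GAL3 0.015, GAL80 -0.00574, HIS5 0.91 (adjusted p = 0.030) and HIS7 0.54. Neighbour-corrected on all 5 arrays, GAL1 had 0.015, GAL2 -0.30, GAL80 -0.093, HIS5 0.72 and HIS7 0.52. With quantile normalization GAL2 had -0.29, and with 937 h alone GAL1 had 0.21, HIS1 -0.40 and GCN4 -0.076. With 1 array left out GAL1 ran between -0.35 (without 937 h) and 0.026 (without 850 h), HIS1 between -0.042 (without 850 h) and 0.85, and GAL2 between -0.31 (without 937 h) and 0.48. For the difference between cultures GAL2 had -0.075 with quantile normalization, GAL1 ran between -0.45 (without no3AT at 507 h) and 2.71 (without 526 h), and SNZ1 -0.97 and OSI1 1.30 with no3AT2. No paired analysis was possible because the arrays are numbered by hour and the sugars share no replicate of common origin.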
